A study of Mus musculus with 21 samples.

Results

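The collagen genes were examined as a family in Cstb-/- mice, in whole cerebellum and in cultures of its granule cells. These mice lack cystatin B, an inhibitor of lysosomal cysteine proteases, and serve as a model of progressive myoclonus epilepsy of Unverricht-Lundborg type. Members were all probe sets whose only gene symbol was Col, a number, a and a number. The Affymetrix whole-genome mouse arrays held 82 such probe sets for 42 genes, of 45037 probe sets tested. They were split by the kind of chain into 21 probe sets of 11 fibrillar collagen genes, 15 of 8 basement membrane collagen genes and 46 of 23 other collagen genes. Of the 42 genes, 15 had 1 probe set and 27 had more, up to 4. The array measured neither Col28a1 nor Col6a6 by a probe set of its own.

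Both genotypes were on the 129SvJ background. Cstb-/- mice carried the constitutive tm1Rm allele and the controls were their wild type littermates. Cerebella were taken at P7, before symptoms, from 4 Cstb-/- and 4 control mice, and at P30, when symptoms are present, from 3 mice of each genotype. Granule cells of P5 pups were cultured for 2 days in vitro after removal of the meninges. They were kept in serum with cytosine arabinoside, which stops dividing glia, in 3 Cstb-/- and 4 control cultures. The sources used here do not say whether a culture pooled several pups or whether cultures were prepared apart, so the p-values there measure only the spread between the cultures, which may be technical.

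Collagens are secreted proteins whose chains wind into triple helices. Fibrillar collagens pack into the tensile fibrils of connective tissue, network-forming type IV chains build the basement membrane sheet, and other chains decorate fibrils or form filaments, short-chain networks or membrane anchors. In the brain, fibrillar collagens are made mainly by fibroblasts of the meninges, perivascular space and choroid plexus stroma, and type IV chains by cells of the vessel wall and the pial surface.

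Values are deposited log2 signals, set to a median of 0 for each probe set within each experiment. Absolute levels were therefore lost, no level could be compared between genes or experiments, and the presence of tissue markers could not be checked. For every array, values below are log2 signals minus the control mean of that experiment, and a difference is the Cstb-/- mean minus the control mean. In bulk RNA, more cells of a type cannot be told apart from more RNA per cell. A probe set was called when the fold was at least 1.3 and the adjusted p of limma, corrected over all 45037 probe sets, was under 0.05 at P7 and P30, and under 0.01 in the cultures. Cstb itself was called lower by both of its probe sets in every experiment, with differences from -3.10 to -1.86, and no Cstb-/- array overlapped the controls.

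Some arrays went against their labels on sex. Granule cell knockout array 1, labelled male, read -2.33 for the Y-linked Eif2s3y (1417210_at, relative to the median of all granule cell arrays) and knockout array 2, labelled female, read 1.78. Control arrays 7 and 8 carried signal of both Eif2s3y and Xist, which is transcribed from the inactive X chromosome. In the granule cell table, 51.3% of probe sets and 36 of the 82 collagen probe sets had arrays with identical values. At P30, knockout array 1, labelled female, read -0.02 for Eif2s3y (1417210_at) and -0.03 for Xist (1427262_at), among the values of the arrays labelled male, and the methods describe the P30 mice as males. At P7, 3 of 4 Cstb-/- and 1 of 4 control mice were labelled male, so genotype and sex were partly mixed there.

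In the Cstb-/- granule cell cultures, RNA of 13 of the 42 collagen genes was higher, most of all for the chains of types I and III. The paper had already reported Col1a2, Col3a1, Col4a2 and Col6a3 as raised in these cultures, so their calls are no independent result. Of the 82 collagen probe sets, 20 were called, and all 20 were higher in the Cstb-/- cultures. The other 62 were not called, and 34 of the 82 differences were below 0. The methods' test, corrected over all probe sets, called 2 collagen probe sets, both of Col1a2, and 32 of all probe sets (0.0711%). Corrected over the probe sets past the fold, it called 17 collagen probe sets. Those past the fold were picked by the size of the same difference, which makes this correction lenient. The share of all probe sets called this way was not counted. With limma 2.54% of all probe sets were called, and 2.07% were called higher, against 24.4% of the collagen probe sets. By class the calls were 10 of 21 fibrillar, 5 of 15 basement membrane and 5 of 46 other collagen probe sets. All Cstb-/- arrays lay above all control arrays for 26 of 82 collagen probe sets, or 31.7%, and for 13.4% of all probe sets. By limma 39.0% of the collagen probe sets had an unadjusted p under 0.05, beside 31.6% of all probe sets. That share was 57.1% of the fibrillar, 46.7% of the basement membrane and 28.3% of the other collagen probe sets. The median difference was 0.59 over the fibrillar, 0.13 over the basement membrane and -0.01 over the other collagens, beside -0.02 over all probe sets. The basement membrane median moved to 0.38 without control array 4 and to 0.063 without control array 7, and was 0.22 with array weights.

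**Figure D1:**
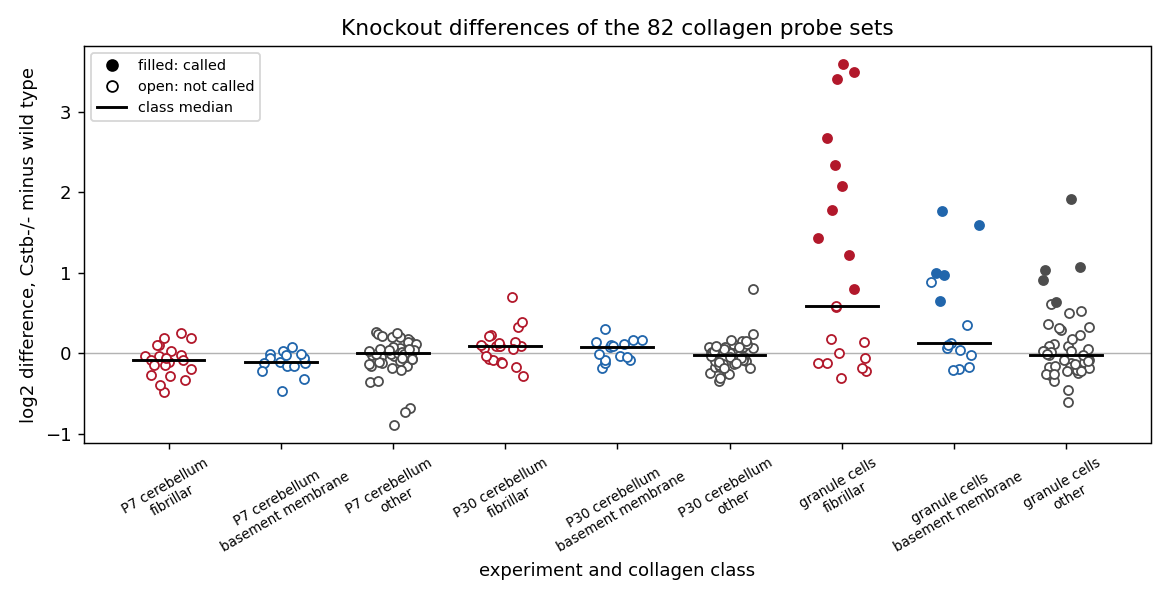
Log2 difference between Cstb-/- and control arrays (y axis) of each of the 82 collagen probe sets, by experiment and class (x axis). Filled points were called, open points were not, and bars are class medians; the 20 filled points all lie in the granule cell columns, up to 3.59.

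Promoter sequence is shown for 3 of the genes with large rises in the cultures. Col1a2 is the gene with the lowest adjusted p of the family. Col4a1 and Col4a2 are transcribed away from each other from a shared stretch of chromosome 8, and both were called higher. Their RefSeq gene models overlapped by 85 bases and the 2 windows printed share 78 bases. Each window runs 5′ to 3′ on the strand of its gene, from 250 bases before to 50 bases after a transcript start in RefSeq (build GRCm38.p6). For Col4a1 that start lies 63 bases inside the outer end of the gene model. Capitals mark the CCAAT box, the letters CCAAT or, on the opposite strand, ATTGG. The windows are chr6:4505368-4505667 on the plus strand for Col1a2, chr8:11312777-11313076 on the minus strand for Col4a1 and chr8:11312555-11312854 on the plus strand for Col4a2.
Col1a2: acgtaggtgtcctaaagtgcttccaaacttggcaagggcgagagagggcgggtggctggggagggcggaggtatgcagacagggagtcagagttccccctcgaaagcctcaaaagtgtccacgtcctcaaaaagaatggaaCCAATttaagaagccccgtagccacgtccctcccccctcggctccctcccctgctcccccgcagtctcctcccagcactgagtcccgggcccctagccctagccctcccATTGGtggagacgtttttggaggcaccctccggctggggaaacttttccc
Col4a1: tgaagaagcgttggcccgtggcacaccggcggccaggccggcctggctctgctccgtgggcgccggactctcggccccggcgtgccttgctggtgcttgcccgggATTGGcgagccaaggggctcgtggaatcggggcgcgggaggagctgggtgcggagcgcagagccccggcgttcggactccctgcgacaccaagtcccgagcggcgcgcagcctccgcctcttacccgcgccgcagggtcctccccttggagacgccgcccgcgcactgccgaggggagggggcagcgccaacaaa
Col4a2: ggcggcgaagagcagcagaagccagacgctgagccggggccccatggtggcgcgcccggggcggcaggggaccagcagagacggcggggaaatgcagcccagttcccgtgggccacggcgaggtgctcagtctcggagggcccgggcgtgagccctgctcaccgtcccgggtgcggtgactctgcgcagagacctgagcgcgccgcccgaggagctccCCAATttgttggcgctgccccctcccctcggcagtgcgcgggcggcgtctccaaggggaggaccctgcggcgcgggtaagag

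The Col1a2 window held 2 CCAAT boxes, and the Col4a1 and Col4a2 windows held 1 each. The window of Col3a1, which rose more than Col4a1 and Col4a2, is not printed. It held 0 CCAAT boxes and, unlike the 3 printed windows, a TATA box (the letters TATAAA). The CCAAT box, read on both strands, was present in 13 of 36 windows of collagen genes (36.1%) and in 37.4% of all 32851 windows. A GC box, GGGCGG on either strand, was found in 22 of the 36 collagen windows (61.1%) and in 35.7% of all windows. Among the windows of genes called in the cultures 8 of 11 held a GC box, and among those of the remaining collagen genes 14 of 25. These windows covered 33 of the 42 genes, and a match of letters is a description only.

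Col1a1 and Col1a2 encode the α1 and α2 chains of type I collagen, the chief protein of connective tissue fibrils. For Col1a2 (1423110_at), Cstb-/- arrays 1, 2 and 3 read 3.46, 3.33 and 3.44, and control arrays 4, 5, 7 and 8 read 0.19, -0.21, -0.06 and 0.08. The knockout arrays lay close together and far above every control. The difference was 3.41 ± 0.10 (SE, n = 3 and 4), a fold of 10.6 (limma adjusted p = 1.91e-05). A second probe set (1450857_a_at) rose by 2.67, whereas the third (1446326_at) differed by 0.14 and was not called. Col1a1 (1423669_at) read 4.12, 3.33 and 3.32 on the Cstb-/- arrays and 0.06, -0.19, 0.04 and 0.08 on the controls. Array 1 thus stood above the other knockout arrays, and the groups did not overlap. Its difference was 3.59 ± 0.19, a fold of 12.1 (adjusted p = 6.43e-05). The other Col1a1 probe set (1455494_at) rose by 1.78, with 2.39, 1.11 and 1.85 on the Cstb-/- arrays, and passed in only 1 of the 7 fits that each left out 1 array. Its adjusted p over those fits ran from 0.00104 to 0.0351, and only the fit without knockout array 2 passed.

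Col3a1 encodes type III collagen, which forms fibrils together with type I in pliable tissues. With probe set 1427883_a_at it read 3.41, 3.60 and 3.47 on the Cstb-/- arrays and 0.13, -0.50, 0.05 and 0.31 on the controls. The rise was 3.49 ± 0.18 (adjusted p = 5.86e-05), and the second Col3a1 probe set (1427884_at) rose by 2.34 ± 0.12. Col5a2 lies 24.6 kb from Col3a1 on chromosome 1 and encodes a chain of type V collagen, which helps to start type I fibrils. Its probe set 1422437_at read 2.11, 2.11 and 2.03 on the Cstb-/- arrays and 0.21, -0.31, -0.09 and 0.19 on the controls. That rise was 2.08 ± 0.13 (adjusted p = 0.000123), and 1450625_at of the same gene rose by 1.43.

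Col5a1 encodes the partner chain of type V. One of its 3 probe sets (1416740_at) was called, at 1.22, 1.27 and 1.17 on the Cstb-/- arrays and between -0.19 and 0.23 on the controls. The rise of 1.22 ± 0.10 had an adjusted p of 0.000609. The other 2 probe sets were not called: 1434479_at lay just outside the threshold with 0.59 (adjusted p = 0.0101), and 1416741_at had 0.57 (adjusted p = 0.0325). Col11a1 encodes a chain of type XI, a minor fibrillar collagen of cartilage. Its probe set 1449154_at rose by 0.80 ± 0.09, with 0.91, 0.68 and 0.80 on the Cstb-/- arrays, while 1418599_at differed by 0.19. The 9 remaining fibrillar probe sets that were not called, those of Col2a1, Col5a3, Col11a2, Col24a1, Col27a1 and the third of Col1a2 among them, had differences from -0.30 (Col5a3, 1419703_at) to 0.19.

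**Figure D2:**
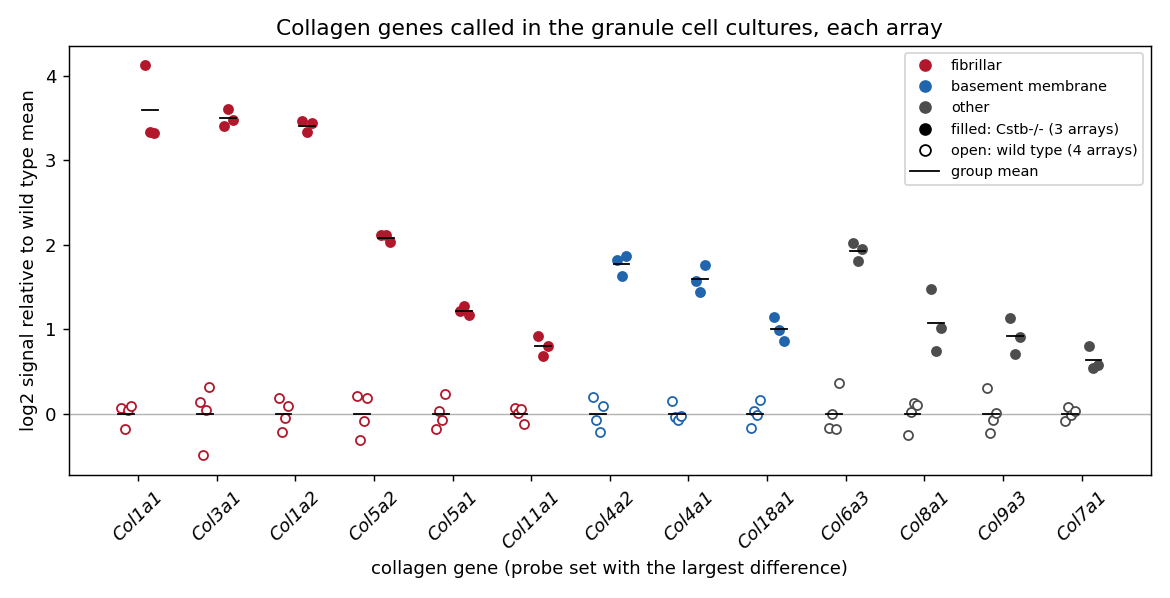
Log2 signal relative to the control mean (y axis) of the 13 collagen genes called in the granule cell cultures (x axis, the probe set with the largest difference per gene), coloured by class. Filled points are the 3 Cstb-/- arrays, open points the 4 control arrays and bars group means; for every gene shown all filled points lie above all open points, for Col1a1 at 3.32 to 4.12.

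Among basement membrane collagens, the calls fell on Col4a1, Col4a2 and Col18a1. Col4a1 and Col4a2 encode the α1 and α2 chains that form the common type IV trimer of nearly all basement membranes. Col4a2 (1424051_at) read 1.82, 1.63 and 1.86 on the Cstb-/- arrays and 0.20, -0.08, -0.21 and 0.09 on the controls. The rise of 1.77 ± 0.11 corresponded to a fold of 3.41 (adjusted p = 0.000139). Col4a1 (1452035_at) read 1.57, 1.44 and 1.76 on the Cstb-/- arrays and 0.14, -0.04, -0.08 and -0.02 on the controls. It rose by 1.59 ± 0.10 (adjusted p = 0.000117), and the other Col4a1 probe set (1426348_at) by 0.98. Col18a1 encodes type XVIII collagen, whose end fragment is endostatin. Its probe set 1418237_s_at read 1.14, 0.99 and 0.86 on the Cstb-/- arrays and between -0.17 and 0.16 on the controls, a rise of 1.00 ± 0.10 (adjusted p = 0.00134), and 1426955_at rose by 0.66.

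The remaining type IV chains, which form the trimers of more specialised basement membranes, were not called in the cultures. Col4a3 and Col4a4 had differences from -0.20 to 0.06 over 5 probe sets. Col4a5 (1425476_at) read 0.98, 0.66 and 1.00 on the Cstb-/- arrays and 0.25, -0.38, 0.02 and 0.10 on the controls. Its difference of 0.88 ± 0.16 missed the threshold (adjusted p = 0.0127), and 1425475_at differed by 0.35. Col4a6, 1.3 kb from Col4a5 on the X chromosome, differed by 0.13 and 0.10. Col15a1, a relative of Col18a1, had the lowest value of the class at -0.21 (1448755_at).

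Of the other collagens, Col6a3 rose most. It encodes the α3 chain of type VI collagen, which forms beaded filaments near cell surfaces. Its probe set (1424131_at) read 2.01, 1.81 and 1.94 on the Cstb-/- arrays and -0.17, 0.00, -0.19 and 0.36 on the controls. The rise was 1.92 ± 0.14, a fold of 3.79 (adjusted p = 0.000249). Type VI also needs the α1 and α2 chains of Col6a1 and Col6a2, which were looked at after the value of Col6a3 was seen. Col6a1 (1448590_at) read 0.09, 1.09 and 0.30 on the Cstb-/- arrays against -0.13 to 0.08 on the controls. Col6a2 (1452250_a_at) read 0.30, 1.21 and 0.08 against -0.11 to 0.08. In both genes knockout array 2 stood apart from knockout arrays 1 and 3, and neither difference was called (0.50 and 0.53, adjusted p = 0.15 and 0.164). In Col6a3 the 3 arrays were alike. Col6a1 and Col6a2 lie 85.2 kb apart on chromosome 10, at 1.7 and 1.8 Mb from Cstb. Col18a1, called higher in the cultures, lies nearer to Cstb, at 1.26 Mb.

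Col8a1 encodes a short chain that builds hexagonal networks under endothelia, with Col8a2 as its partner chain. Col8a1 (1418440_at) read 1.48, 0.74 and 1.01 on the Cstb-/- arrays and -0.25, 0.02, 0.13 and 0.10 on the controls, a rise of 1.08 ± 0.17 (adjusted p = 0.00886). Its probe set 1455627_at rose by 1.04, and 1418441_at differed by 0.12. Col8a2, named after its value was seen, differed by 0.33 and was not called. Col9a3 encodes a chain of type IX collagen, which decorates fibrils. It rose by 0.91 ± 0.14 with 1460693_a_at (adjusted p = 0.00854), whereas 1460734_at and 1420280_x_at differed by 0.62 and 0.18 without a call. Col7a1 encodes the anchoring fibril collagen of epithelia and rose by 0.64 ± 0.09 (1419613_at, adjusted p = 0.00482). The lowest value of the family belonged to Col9a1 (1421381_a_at), the partner chain of Col9a3. It read -1.02, -0.05 and -0.75 on the Cstb-/- arrays and -0.29, 0.18, -0.05 and 0.17 on the controls, and its difference of -0.61 was not called (adjusted p = 0.109).

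By subgroup, limma called 1 of 24 fibril-associated and 1 of 7 type VI collagen probe sets in the cultures, beside 2.54% of all probe sets. It called 2 of 5 short-chain network and 0 of 7 transmembrane collagen probe sets. The collagens of the last group anchor cells to their surroundings from the cell membrane. For these the lowest adjusted p was 0.104 (limma), and 1 of 7 had an unadjusted p under 0.05, beside 31.6% of all probe sets.

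The calls in the cultures depended on which arrays were used. In the 7 fits that each left out 1 array, 12 of the 20 probe sets, of 9 genes, passed every time: those of Col1a1 (1423669_at), Col1a2, Col3a1, Col5a1, Col5a2, Col4a1 (1452035_at), Col4a2, Col18a1 (1418237_s_at) and Col6a3. The other 8 probe sets passed in 1 to 6 of the 7 fits. Col11a1 lost its call without knockout array 3 (adjusted p = 0.0131). The second Col4a1 probe set lost it without knockout array 1, control array 7 or control array 8, and Col8a1 (1455627_at) without knockout array 1, control array 5 or control array 7. Col9a3 passed in 2 fits, those without knockout array 2 and without control array 4. Col7a1, Col8a1 (1418440_at) and the second Col18a1 probe set passed only without knockout array 2, with adjusted p up to 0.0232, 0.0398 and 0.0209. Between 13 and 21 collagen probe sets were called in these fits, with 13 without knockout array 1 and 13 without control array 7. How many of all probe sets these fits called was not counted. Without control arrays 7 and 8, which carried signal of both sexes, 24 probe sets were called in all, or 0.0533%. Of these 4 were collagen probe sets, both of Col1a2 and 1 each of Col3a1 and Col6a3. The differences themselves stayed near those with all arrays, such as 3.65 for Col1a1, 1.71 for Col4a2 and 1.15 for Col8a1 (1455627_at).

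The proteins that make, cut and bind collagen were examined as lists. The paper had already reported Lox, Pcolce, Serpinh1, Lum, Bgn and Nid2 as raised in these cultures, so the counts below are no independent result. Among genes for folding, modification and secretion, 2 of 20 measured genes were called higher in the cultures and 0 lower. These were Serpinh1, the collagen chaperone of the endoplasmic reticulum, with a rise of 1.42 ± 0.14, and Crtap, a subunit of the prolyl 3-hydroxylase complex, with 0.91 ± 0.08. Of 10 genes for procollagen cleavage and crosslinking, 3 were called higher. Lox, the lysyl oxidase that crosslinks fibrils, rose by 2.51 ± 0.09, Pcolce, which enhances procollagen cleavage, by 2.26 ± 0.13, and Loxl1 by 1.54 ± 0.18. The 3 Lox values of the Cstb-/- arrays lay between 2.46 and 2.60, against -0.08 to 0.20 in the controls.

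Of 9 collagen receptor genes, the integrin chains Itgb1 and Itga1 were called higher, by 1.03 and 0.69. None of 9 genes for collagen degradation was called by limma in either direction, although 6 of their 21 probe sets were higher and 5 lower at an unadjusted p under 0.05, beside 31.6% of all probe sets in either direction. Mmp2, a gelatinase, had a difference of 0.70 with an adjusted p of 0.0113. Among 8 small proteoglycans that bind fibrils, Lum, Bgn and Dcn rose by 1.94, 1.59 and 1.53. Of 14 other basement membrane genes only Nid2, a nidogen that links laminin to type IV collagen, was called, with a rise of 1.33 ± 0.12. By probe set, 3 of 33 for folding, 5 of 18 for cleavage and crosslinking and 2 of 26 for receptors were called higher. The counts were 0 of 21 for degradation, 5 of 19 for proteoglycans and 1 of 27 for the other basement membrane genes. Over all probe sets 2.07% were called higher. The medians of these 6 lists were 0.39 for folding, 0.36 for cleavage and crosslinking, 0.08 for receptors, -0.07 for degradation, 0.07 for proteoglycans and 0.19 for the other basement membrane genes, beside -0.02 over all probe sets.

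Some marker lists of cells that could remain in the cultures were higher on the same arrays as the collagens, and others were not. Of 12 meningeal fibroblast markers 4 were called higher, among them Lum and Dcn, which the proteoglycan list also holds, and Aldh1a2, a retinoic acid enzyme, at 1.03. The mean of this list ran from 0.43 to 0.54 on the Cstb-/- arrays and from -0.08 to 0.08 on the controls. Of 13 smooth muscle and pericyte markers 3 were called higher: Tagln at 2.39, Acta2 at 2.25 and Pdgfrb at 1.97. The mean of that list was 0.22 to 0.29 on the Cstb-/- arrays, while its median difference over 25 probe sets was -0.01. Among 10 astrocyte markers 3 were called higher, such as Gja1 at 1.67, with list means of 0.42 to 0.58 on the Cstb-/- arrays. All 10 mitosis genes were called higher, with list means of 1.22 to 1.32. The paper had already reported several of them as raised in these cultures, such as Cdc20, Bub1 and Kif11, so this count is no independent result. It had also reported Lum, Acta2 and Gja1 of the lists above as raised there. By probe set, 4 of 16 meningeal fibroblast, 3 of 25 smooth muscle and pericyte and 7 of 32 astrocyte probe sets were called higher. The mitosis list had 19 of 23, and over all probe sets 2.07% were called higher. The lists of endothelial, choroid plexus, oligodendrocyte and microglia markers had 0 calls by limma, and some of their probe sets had an unadjusted p under 0.05: 2 higher and 3 lower of 21 for endothelial, 3 higher and 1 lower of 21 for choroid plexus, 10 lower of 26 for oligodendrocyte and 4 lower of 17 for microglia markers. Over all probe sets 13.3% were lower at that threshold. In the granule neuron list 1 of 9 genes, Fat2, was called lower at -0.62, while 2.54% of all probe sets were called in either direction. The median difference of that list was 0.11, and 11 of its 19 probe sets lay above 0. By limma 2 of the 19 were higher and 4 lower at an unadjusted p under 0.05. Its means ran from -0.11 to 0.02 on the Cstb-/- arrays and from -0.07 to 0.05 on the controls. The part of these cells in the collagen result was not tested, and absolute marker levels could not be read.

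**Figure D3:**
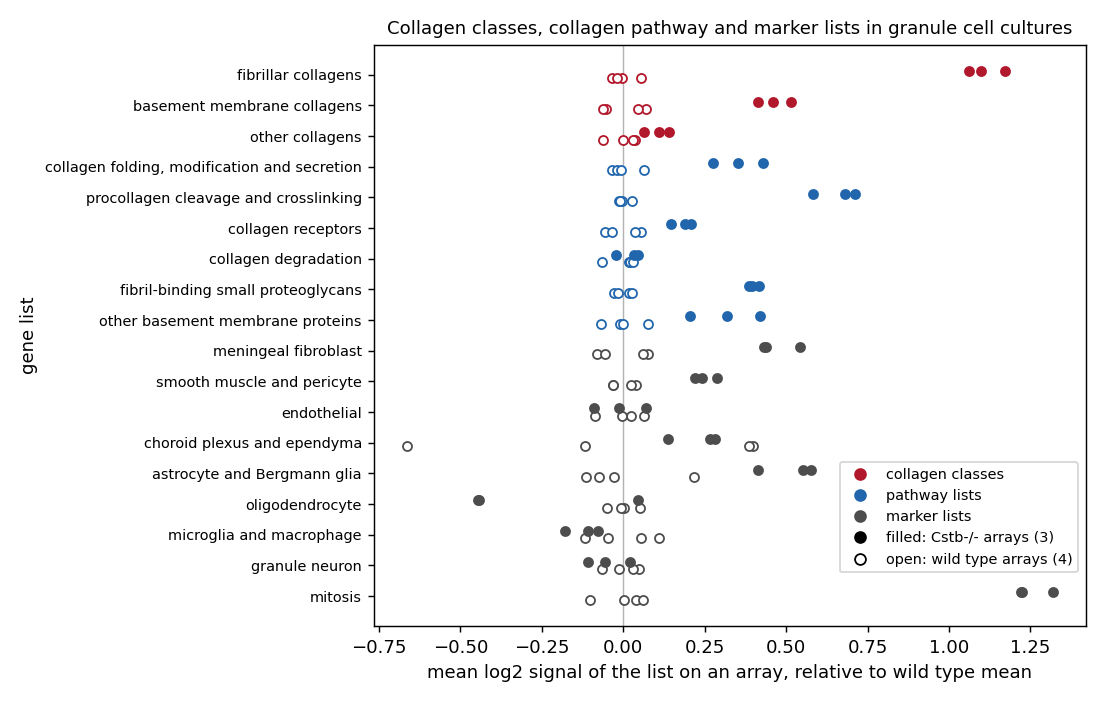
Mean log2 signal of each gene list on each granule cell array, relative to the control mean (x axis), for the collagen classes, the collagen pathway lists and the cell markers (y axis). Filled points are the 3 Cstb-/- arrays and open points the 4 control arrays; the fibrillar collagens (1.06 to 1.17) and the mitosis list (1.22 to 1.32) lie farthest to the right.

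At P7 no collagen probe set was called. Col8a1, Col8a2, Col3a1, Col5a2 and Col4a5 had the lowest values in the Cstb-/- cerebella. Over all probe sets 0.00666% were called. By limma 15 of the 82 collagen probe sets had an unadjusted p under 0.05, or 18.3% beside 9.45% of all probe sets. Of these 13 were lower, or 15.9% beside 4.99%. All Cstb-/- arrays lay below all control arrays for 10 collagen probe sets, or 12.2% beside 2.84%. The methods' test, corrected over all probe sets, called 0. Corrected over those past the fold it called 2 collagen probe sets, of Col5a2 and Col8a1, and 203 of all probe sets (0.451%). Probe sets past the fold were picked by the size of the same difference, which makes this correction lenient. The median difference was -0.08 over fibrillar, -0.11 over basement membrane and 0.00 over other collagens, beside 0.01 over all probe sets.

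Col8a1 had the lowest adjusted p at P7. Its probe set 1455627_at read -0.49, -0.99, -1.14 and -0.93 on Cstb-/- arrays 1, 2, 3 and 5, and 0.00, -0.07, -0.13 and 0.20 on the controls. Knockout array 1 was nearest to the controls, and the groups did not overlap. The difference was -0.89 ± 0.13 (SE, n = 4 and 4; adjusted p = 0.119). Without knockout array 1 it was -1.02 and was called (limma adjusted p = 0.00231), and that fit called 38 of all probe sets (0.0844%). Leaving out the array nearest to the controls enlarges the difference by construction, so this call is no separate support. The probe set 1418440_at read between -0.79 and -0.48 on the Cstb-/- arrays and between -0.37 and 0.43 on the controls, whereas the third probe set (1418441_at) differed by 0.08. Col8a2 (1434667_at), its partner, was examined after its value was seen and read -0.26, -0.92, -0.93 and -0.79 on the Cstb-/- arrays and 0.20, -0.29, -0.36 and 0.45 on the controls. The difference of -0.72 was not called, and the groups overlapped through knockout array 1.

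Markers of the choroid plexus, the epithelium that secretes cerebrospinal fluid, moved in the same direction on the same arrays. Their list mean was -0.34, -1.79, -2.29 and -2.24 on Cstb-/- arrays 1, 2, 3 and 5, and between -0.18 and 0.16 on the controls. Of its 21 probe sets 16 were lower at an unadjusted p under 0.05 and 0 were called. Ttr, its most abundant secreted product, had a difference of -4.24 (1455913_x_at), with arrays from -6.66 to -0.24. The part of choroid plexus tissue in the Col8a1 and Col8a2 values was not tested. Oligodendrocyte markers were higher at an unadjusted p under 0.05 in 22 of 26 probe sets, with 0 called.

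Some fibrillar and type IV chains also had values under the controls at P7, without a call. Col3a1 (1427884_at) read -0.36, -0.25, -0.79 and -0.52 on the Cstb-/- arrays and -0.13, -0.02, 0.28 and -0.13 on the controls. The groups did not overlap, and the difference was -0.48 ± 0.13 (adjusted p = 0.336). The other Col3a1 probe set (1427883_a_at) differed by -0.33 ± 0.08, and its arrays did not overlap either. Col5a2 (1450625_at) read -0.27, -0.27, -0.58 and -0.42 on the Cstb-/- arrays and -0.17, 0.04, 0.17 and -0.03 on the controls, a difference of -0.39 (adjusted p = 0.311). Col4a5 (1425476_at) read -0.17, -0.34, -0.41 and -0.92, with array 5 lowest, against -0.09 to 0.13 on the controls. Its difference was -0.46 ± 0.14 (adjusted p = 0.397), and Col4a6 (1421006_at) had -0.21. For Col4a3 and Col4a4 the 5 values lay between -0.12 and 0.08. Col4a1 and Col4a2 had differences of -0.11 (1452035_at), 0.00 and -0.12.

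The highest values at P7 were those of Col9a1 and Col27a1. Col9a1 (1421381_a_at) read 0.27, 0.21, 0.34 and 0.25 on the Cstb-/- arrays and 0.05, 0.06, -0.16 and 0.05 on the controls. Its difference of 0.27 ± 0.07 was not called (adjusted p = 0.355). Col27a1 (1453191_at), a fibrillar collagen of cartilage, differed by 0.26 ± 0.08 with no overlap between the groups. With the labelled sex as a covariate, 1108 of all probe sets (2.46%) were called at P7. Of these 5 were collagen probe sets, all lower: Col8a1 at -0.86, both of Col4a5 at -0.66 and -0.47, Col3a1 at -0.59 and Col5a2 at -0.45. The fit without the covariate gave no call for them.

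Of the pathway lists none had a called gene at P7. Nid2, called higher in the cultures, had -0.63 at P7, with arrays from -0.75 to -0.50 and a limma adjusted p of 0.0855. The paper listed the same probe set (1423516_a_at) as lower at P7 by its own test. The meningeal fibroblast list was at -0.28 to -0.01 on the Cstb-/- arrays and at -0.04 to 0.06 on the controls.

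**Figure D4:**
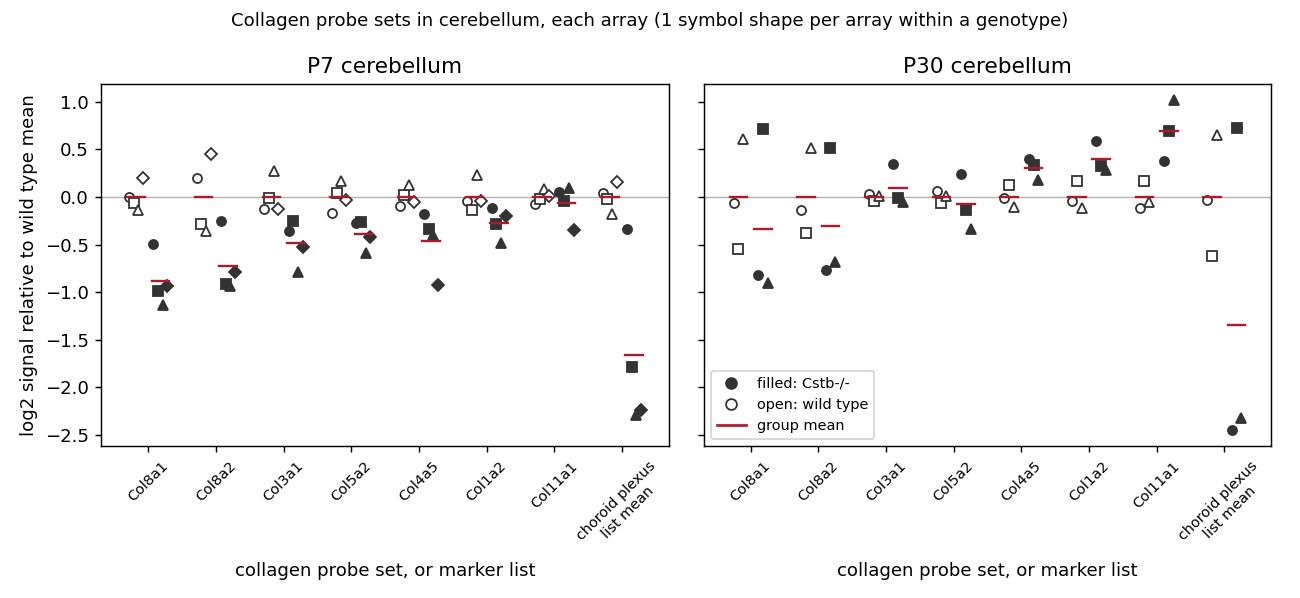
Log2 signal relative to the control mean (y axis) of 7 collagen probe sets and of the mean of the choroid plexus markers (x axis) in P7 and P30 cerebella. Filled symbols are Cstb-/- and open symbols control arrays, each array of a genotype has 1 shape, and bars are group means; at P7 the filled Col8a1 symbols lie between -1.14 and -0.49, and at P30 between -0.91 and 0.71.

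At P30 no collagen probe set was called either, while 0.144% of all probe sets were. By limma 8 of 82 had an unadjusted p under 0.05, or 9.76% beside 7.72% of all probe sets, with 5 higher and 3 lower. The arrays of the genotypes did not overlap for 12 of 82, or 14.6% beside 12.5%. Both shares were near those of all probe sets. The methods' test called 0 with either correction. The median differences were 0.09, 0.08 and -0.02 over the fibrillar, basement membrane and other collagens, beside -0.01 over all probe sets. Microglia markers, in contrast, were called higher for 8 of 11 genes at this age.

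The lowest adjusted p at P30 belonged to Col11a1 (1418599_at), which read 0.38, 0.69 and 1.02 on the Cstb-/- arrays and -0.11, 0.16 and -0.05 on the controls. The groups did not overlap, and the difference was 0.70 ± 0.15 (SE, n = 3 and 3; adjusted p = 0.249). In 1 fit over all groups this probe set was called (limma adjusted p = 0.0154), and that fit called 107 of all probe sets (0.238%) at P30. The other Col11a1 probe set (1449154_at), the one called in the cultures, differed by 0.13. Col1a2 (1423110_at) read 0.59, 0.32 and 0.28 on the Cstb-/- arrays and -0.05, 0.16 and -0.12 on the controls, a difference of 0.40 (adjusted p = 0.414). Col1a1 (1423669_at) differed by 0.33, with 0.57, 0.07 and 0.36 on the Cstb-/- arrays. Col27a1 (1453191_at) had the lowest fibrillar value, -0.28 ± 0.07, with arrays at -0.30, -0.25 and -0.29 against -0.05 to 0.05.

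In the other classes, Col4a5 (1425476_at) differed by 0.30 and Col4a3 (1450224_at) by -0.17. Col25a1 encodes a transmembrane collagen of neurons. Its probe set 1438540_at read 0.35, 0.15 and 1.91 on the Cstb-/- arrays and -0.04, 0.03 and 0.01 on the controls. Knockout array 3 thus carried most of the difference of 0.81 ± 0.38 (adjusted p = 0.664), and 1421427_at of the same gene differed by -0.18. Col8a1 (1455627_at) read -0.82, 0.71 and -0.91 on the Cstb-/- arrays and -0.06, -0.54 and 0.60 on the controls. The groups overlapped, and the values spread widely within each genotype. On the same Cstb-/- arrays the choroid plexus list had means of -2.44, 0.72 and -2.33, and on the controls -0.03, -0.62 and 0.65. Its part in the Col8a1 values was not tested.

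Whether the effect of the genotype differed between experiments was tested directly. The difference in granule cells minus that in P7 cerebellum passed (limma adjusted p under 0.05) for 29 of 82 collagen probe sets, or 35.4% beside 20.3% of all probe sets. Of these 26 were higher in the cultures, 12 fibrillar, 7 basement membrane and 7 other. Col3a1 (1427883_a_at) had 3.49 in the cultures and -0.33 at P7, a difference of differences of 3.83 ± 0.24. For Col1a2 (1423110_at) the values were 3.41 and -0.27, and for Col5a2 (1422437_at) 2.08 and -0.28. Col8a1 (1455627_at) had 1.04 in the cultures and -0.89 at P7. For Col4a5 (1425476_at), called in neither experiment alone, the values were 0.88 and -0.46, and the difference between them was 1.34 ± 0.20 (adjusted p = 0.000108).

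Only 3 collagen probe sets were lower in the cultures than at P7 by this test: Col9a1 (1421381_a_at) at -0.87, Col19a1 (1456953_at) at -0.66 and Col27a1 (1453191_at) at -0.37. Col19a1 encodes a fibril-associated collagen made by some neurons and was named after its value was seen. Between P30 and P7 the genotype difference passed for 0 of 82 collagen probe sets and for 0.124% of all. For this contrast limma gave 10 of the 82 collagen probe sets an unadjusted p under 0.05, beside 7.78% of all probe sets, and the lowest adjusted p was 0.0985. Cultures and cerebella differ in age, cell makeup and growth conditions, which cannot be told apart here.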

How the data were processed

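RNA was hybridized to Affymetrix arrays. The authors ran RMA in GeneSpring GX, which corrects background, applies quantile normalization and summarizes probes, and then set each probe set relative to its median over samples. The deposited values are log2 signals of this kind, with a median of 0 per probe set within each experiment. The version of that software is not given in the sources used here. From 45101 probe sets, 64 controls were left out. Symbols came from the platform annotation, which gave 34945 probe sets 1 symbol, 932 several and 9160 none, and 0 symbols changed through RefSeq (GRCm38.p6). Genotypes were compared within each experiment by limma (version 3.58.1, R 4.3.3; lmFit and eBayes, 2-sided, Benjamini-Hochberg over all probe sets). Differences between experiments were contrasts in 1 fit over the 6 groups. Tables and figures were made in Python 3.11.15 with pandas 2.3.3 and matplotlib 3.10.9. The fit was tested on simulated data. The number of arrays limits the precision.

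The collagen classes, gene lists, tests and naming rule were chosen with earlier results of these data known. By that rule, called genes, the highest and lowest of each class, the partners in genomic pairs and up to 4 genes of each list are named. Alternatives comprised the methods' unpaired equal-variance test, other thresholds, re-centred arrays, robust variance, array weights, 1 fit over all groups, labelled sex, the replicate number as a block, arrays left out, 1 value or 1 probe set per gene, no probe sets whose names end in s_at, x_at or a_at (17 of the 82), symbols without update, and type IV chains alone.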

Additional observations from a re-analysis of the deposited data

Results flagged for a closer look

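In the groups of 4 arrays, 35 sets of values of named probe sets were examined for a single array far from the others, and 3 stood apart. Chance alone sets apart about 1 in 20 such groups. The arrays were P7 control array 3 for Col9a1 (1421381_a_at) at -0.16, granule cell control array 5 for Col1a1 (1423669_at) at -0.19 and the same array for Col15a1 (1448755_at) at 0.19, each on the log2 scale relative to the control mean. For Col1a1 the distance is small beside the knockout difference of 3.59.

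The genotype difference was tested between the granule cell cultures and the P7 cerebella with a limma contrast. For 13 genes the difference of differences was above 0 and passed: Col3a1 3.83, Col1a1 3.70, Col1a2 3.68, Col5a2 2.36, Col6a3 2.07, Col4a2 1.89, Col8a1 1.76 (1418440_at), Col4a1 1.70, Col9a3 1.26, Col5a1 1.19, Col18a1 1.02, Col11a1 0.88 and Col7a1 0.69. For Col9a1 it was -0.87. The probe set of each gene was the one with the largest difference in the cultures, which favours large values.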

How the results depend on the processing

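In the granule cells, the methods' test corrected over all probe sets called 2 collagen probe sets (2 fibrillar, 0 basement membrane, 0 other); corrected over those past the fold it called 3 of the other class. Without control arrays 7 and 8, the calls were 4 (3, 0 and 1). Per gene, the mean of all probe sets gave 12 genes (6, 3 and 3) and the lowest-numbered probe set 11 (5, 3 and 3), with 18 and 15 genes differing between cultures and P7, since fewer items were tested. Medians were then 0.49 and 0.19 for fibrillar and 0.36 and 0.24 for basement membrane collagens in the cultures, and with the lowest-numbered probe set -0.0764 for other collagens at P30. Array weights gave medians of 0.22 (cultures) and -0.019 (P30) for basement membrane collagens, 1 call at P7 and 3 for P30 minus P7. At P7 array weights called 17 of all probe sets (0.0377%). With labelled sex, P7 had 5 calls and medians of -0.029 (fibrillar) and -0.061 (basement membrane), and 3 probe sets differed between P30 and P7. Sex was used as labelled, although 1 P30 array and granule cell knockout arrays 1 and 2 go against their labels. Control arrays 7 and 8 carried signal of both sexes. The contrast of P30 and P7 came from a fit over all groups, which held these arrays too. The methods' test past the fold called 2 at P7, and type IV alone left 3 basement membrane calls. At P30, 1 fit over all groups called 1, beside 0.238% of all probe sets. The cause was not tested where none is given. Where the share of all probe sets passing under an alternative is not given, it was not counted.

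With each array left out in turn, the culture calls ranged from 13 to 21 (basement membrane 3 to 6, other 1 to 5). Culture medians ranged from 0.56 to 0.67 (fibrillar) and from 0.063 to 0.38 (basement membrane). At P30 they ranged from -0.033 to 0.098 (basement membrane) and from -0.029 to 0.029 (other). The P7 calls ranged from 0 to 1 (1 without knockout array 1, of Col8a1) and those of P30 minus P7 from 0 to 1 (1 without P30 knockout array 1). Among genes named, 2 values turned direction, both with the lowest-numbered probe set: Col4a3 at P7 to -0.052 and Col25a1 at P30 to -0.18; 678 other values kept their side, 76 lost and 8 gained a call.

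Replicate numbers did not pair the arrays (correlations of same-numbered arrays from -0.178 to 0.168). With the number as a block, 0 collagen probe sets were called at P7 and 0 at P30, and 26 differed between cultures and P7. The granule cell groups share no number.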
